A study of Bos taurus with 30 samples.

Results

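The miRNAs described here are miR-143, miR-145 and both arms of miR-126 (bta-miR-143, bta-miR-145, bta-miR-126-5p and bta-miR-126-3p), 4 of the 1030 bovine miRNAs in the deposited table, chosen by name as markers of smooth muscle and endothelium. They were measured by small RNA sequencing in whole testis of 30 Holstein-Friesian bull calves at 12 weeks of age, with 1 library per calf. From 2 weeks of age the 15 High calves were given 10 L of milk replacer a day, made from 1.5 kg, plus free access to concentrate, and were meant to gain 1.0 kg daily. The 15 Moderate calves were given 4 L, made from 0.5 kg, and a daily ration of 0.5 kg of concentrate, and were meant to gain 0.5 kg daily. The comparison asks whether early feeding level changed these miRNAs, and the libraries of each diet show whether the miRNAs vary together from calf to calf.

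miRNAs are short RNAs that lower the stability and translation of the mRNAs they pair with. miR-143 and miR-145 are made from a shared primary transcript and are among the best known markers of contractile smooth muscle, which in the testis lies in the walls of blood vessels and in the peritubular myoid cells around the seminiferous cords. miR-126 is made from an intron of EGFL7, a gene of endothelial cells, and its hairpin gives rise to a 5p and a 3p strand. In mice and zebrafish miR-126-3p is known for promoting signalling by vascular endothelial growth factor, and in mice miR-126-5p for supporting endothelial proliferation. In the ARS-UCD2.0 annotation, MIR143 and MIR145 are next to each other on chromosome 7 within the long non-coding RNA LOC132345768, and MIR126 lies within EGFL7 on chromosome 11.

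Depth ran from 6.0003 to 19.98 megareads (M reads), with 24 libraries under 12 M reads (11 High, 13 Moderate) and 6 above (4 High, 2 Moderate). Values are TMM-scaled CPM, in which reads are set against a library size adjusted by the trimmed mean of M values, and error is SD over calves unless stated. The diet of a library is its diet characteristic. For 18 libraries (9 High) the sample title names the opposite diet, so each diet result depends on that characteristic. Moderate replicate 5 differed from the rest of the libraries: 84.8% of its reads were miR-10b. The main diet differences and pair correlations of the 4 miRNAs that rest on it are given with and without it. Values of other miRNAs include it unless stated. The gonadal miRNA miR-202 averaged 2335 ± 211 in High and 2315 ± 549 in Moderate libraries (n = 15 each), and the germ cell miRNA miR-34c 113 ± 42.1 and 64.6 ± 37.0. Moderate replicate 5 had 1055 of miR-202 and 9.51 of miR-34c, against at least 1568 and 32.2 in the other libraries.

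All 4 miRNAs were well above the detection limit in every library. miR-143 was the second most abundant miRNA in each of the 30 libraries, with 11.9% ± 1.33 of the reads in High and 11.5% ± 3.15 in Moderate libraries. Without Moderate replicate 5 the Moderate share was 12.1% ± 2.32 (n = 14). miR-126-5p ranked between 12 and 22, miR-126-3p between 54 and 81, and miR-145 between 78 and 108. This order, miR-143 above miR-126-5p above miR-126-3p above miR-145, was seen in 30 of 30 libraries. Mature miRNAs are close to each other in length, so the scale needs no term for length. The order is one of reads, and whether the library kit captured each miRNA equally was not tested. The lowest number of reads behind any of these values was 262, for miR-145 in Moderate replicate 5, and the lowest in any High library was 1669, also for miR-145.

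**Figure D1:**
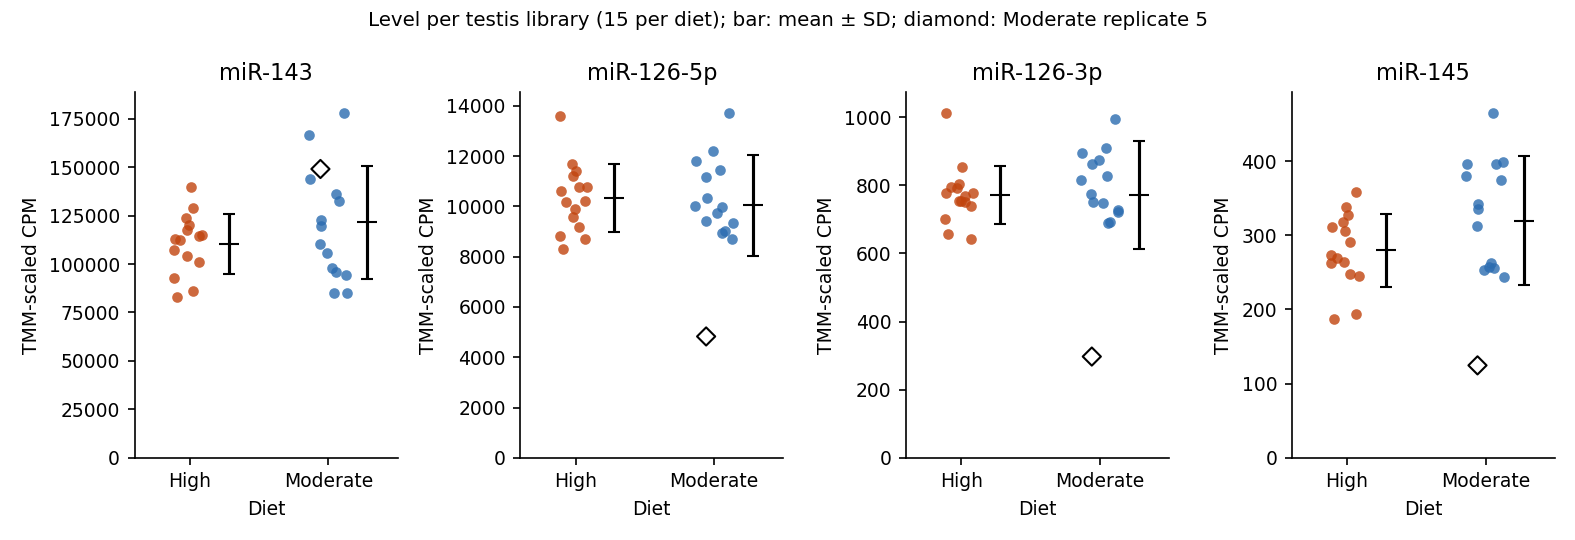
Levels of miR-143, miR-126-5p, miR-126-3p and miR-145 in TMM-scaled CPM, 1 point per calf, with High left of Moderate. Bars give the mean ± SD of 15 libraries, and the diamond is Moderate replicate 5, which lies below every other library for 3 of the 4 miRNAs, at 4828 for miR-126-5p, 297 for miR-126-3p and 125 for miR-145.

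Neither smooth muscle miRNA passed the test for diet. miR-143, which in mouse vessels keeps smooth muscle cells in the contractile state, had a lowest value of 83028, a median of 112773 and a highest value of 139539 in High libraries, against 85110, 119418 and 178074 in Moderate libraries. The groups overlapped over most of their range, with 4 Moderate libraries above every High library and 1 High library below every Moderate one. The means were 110581 ± 15485 in High and 121549 ± 29024 in Moderate libraries, a log2 fold change of -0.11 (SE 0.10, 95% confidence interval -0.32 to 0.09; adjusted p = 0.544 in limma).

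miR-145, the partner of miR-143 that promotes smooth muscle differentiation in mice, ran from 187 through a median of 274 to 358 in High libraries, against 125, 336 and 465 in Moderate libraries. In High calves 13 of 15 libraries were under the Moderate median, and 6 Moderate libraries lay above all High ones, but the lowest value of all belonged to Moderate replicate 5. The means were 280 ± 49.1 in High and 320 ± 86.9 in Moderate libraries, with a log2 fold change of -0.15 (SE 0.13, interval -0.43 to 0.12; adjusted p = 0.529). Without Moderate replicate 5 the Moderate mean was 334 ± 70.7 (n = 14) and the log2 fold change -0.25 (SE 0.10, interval -0.46 to -0.04). Its unadjusted limma p was then 0.0217 and its adjusted p 0.106, so miR-145 missed the threshold here as well.

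Neither arm of the endothelial miR-126 passed the test for diet, and the levels of each arm were close between the diets. miR-126-5p, the more abundant arm, had a lowest value of 8323, a median of 10216 and a highest value of 13603 in High libraries, against 4828, 9994 and 13727 in Moderate libraries. The means were 10333 ± 1364 in High and 10047 ± 2015 in Moderate libraries, with a log2 fold change of 0.06 (SE 0.10, interval -0.14 to 0.26; adjusted p = 0.770 in limma). Apart from Moderate replicate 5, which was lower than every other library, and 1 Moderate library above all High ones, the values of both diets covered the same range.

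miR-126-3p ran from 641 through 768 to 1013 in High libraries, against 297, 775 and 994 in Moderate libraries. Only High replicate 5 stood above all Moderate libraries and only Moderate replicate 5 below all High ones. The means were 772 ± 86.2 in High and 772 ± 158 in Moderate libraries, with a log2 fold change of 0.03 (SE 0.11, interval -0.19 to 0.25; adjusted p = 0.872). Without Moderate replicate 5 the log2 fold changes were -0.01 for miR-126-5p (interval -0.15 to 0.13) and -0.06 for miR-126-3p (interval -0.18 to 0.06), and that of miR-143 was -0.09 (interval -0.29 to 0.11).

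None of the 4 miRNAs was thus called for diet by limma, where 19 of all 387 miRNAs tested (4.91%) passed an adjusted p of 0.05, 9 of them higher (2.33%) and 10 lower (2.58%) in High. Counted at an unadjusted p under 0.05, the 4 miRNAs also gave 0 calls, against 82 of the 387. Without Moderate replicate 5, 45 of 385 miRNAs passed (11.7%), again with 0 of the 4. In that fit miR-145 alone of the 4 was below an unadjusted limma p of 0.05, against 115 of the 385. Tests on reads recovered from the deposited values, in which the 4 miRNAs also gave 0 calls, passed 6.98% of miRNAs in edgeR and 13.4% in DESeq2. The intervals for all 30 libraries leave room for a mean of miR-143 between 0.803 and 1.07 times that of Moderate calves, and for miR-145 between 0.744 and 1.08 times. For miR-126-5p they run from 0.910 to 1.20 times and for miR-126-3p from 0.879 to 1.19 times. In bulk tissue, fewer cells of a type and less RNA per cell cannot be told apart.

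**Figure D2:**
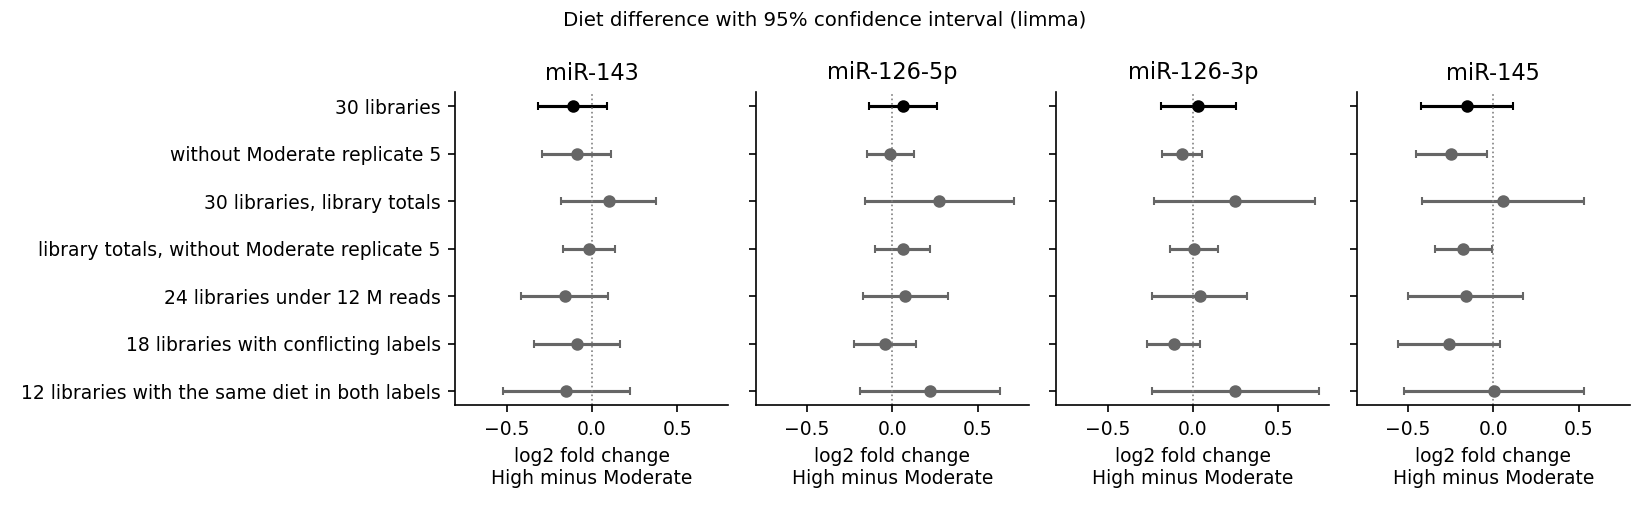
Log2 fold change, High minus Moderate, of each miRNA with its 95% confidence interval from limma, in all 30 libraries and in other selections or scalings of the libraries. With all 30 libraries every interval includes 0, and the interval of miR-145 lies below 0 without Moderate replicate 5, at -0.46 to -0.04, with an adjusted p of 0.106.

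Upper-quartile and median-of-ratios scaling kept the direction of all 4 differences. Scaling by library totals moved the median log2 fold change of all tested miRNAs to 0.22, against 0.03 with the deposited scaling. On that scale the 4 miRNAs stood at 0.10 for miR-143, 0.06 for miR-145, 0.27 for miR-126-5p and 0.24 for miR-126-3p, so relative to the shift of all miRNAs the smooth muscle pair remained below and the miR-126 arms slightly above. No difference passed the threshold there, nor did any of the 387 miRNAs in limma, of which 59 had an unadjusted p under 0.05. The same scale without Moderate replicate 5 gave -0.02 for miR-143 and -0.18 for miR-145 (unadjusted limma p = 0.0383, adjusted p = 0.153), 0.06 for miR-126-5p and 0.01 for miR-126-3p, beside a median of 0.07 over all tested miRNAs. In that fit 107 of the 387 miRNAs had an unadjusted p under 0.05. Among the 12 libraries whose title and characteristic name 1 diet, the log2 fold changes were -0.15 for miR-143, 0.00 for miR-145, 0.22 for miR-126-5p and 0.25 for miR-126-3p. Moderate replicate 5 is one of these 12, and without it they were -0.09 for miR-143, -0.23 for miR-145, 0.05 for miR-126-5p and 0.02 for miR-126-3p. In the 18 with conflicting labels they were -0.09, -0.26, -0.04 and -0.11, in the same order. Between the 12 and the 18, the change in the diet effect had unadjusted limma p-values from 0.0994 (miR-126-3p) to 0.764 (miR-143) over the 4. That change was fitted with Moderate replicate 5 among the 12 and was not tested without it. Within the 6 deeper libraries the log2 fold changes were 0.04 for miR-143, -0.19 for miR-145, 0.02 for miR-126-5p and 0.00 for miR-126-3p, and within the 24 under 12 M reads -0.16, -0.16, 0.08 and 0.04.

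Moderate replicate 5 set the smooth muscle miRNAs apart from each other. It had 149034 TMM-scaled CPM of miR-143, 1.45 SD above the mean of the other 29 libraries on the log2 scale, whereas miR-145 stood at -4.05 SD, miR-126-5p at -5.85 SD and miR-126-3p at -8.84 SD from theirs. As a share of all reads, which the scaling does not touch, miR-143 made up 3.53% in it, against 9.74% to 18.05% in the others. The share of miR-126-5p was 0.114% there, against 0.837% to 1.49%. Both shares are of all reads, of which miR-10b held 84.8% in that library, against 37.0% to 49.0% in the others. They therefore do not give the level among the remaining reads. The TMM-scaled values of Moderate replicate 5 summed to 4224247, against 815635 to 1111446 in the others. Markers of several other cell types lay outside the range of the other libraries as well. Of the 3 red blood cell miRNAs, miR-486 stood at 7898 in it, against 715 to 3301 in the others, and carried their sum of 7927, whereas miR-451 at 29.01 and miR-144 at 0.476 lay below every other library. The 4 fibroblast miRNAs (both arms of miR-199a, miR-199b, miR-214) summed to 2620, against 4378 to 6130. Further lists summed below every other library too. The miRNAs of smooth muscle phenotype summed to 34898, against 44976 to 79703, and miR-26a held 24506 of it, against 35265 to 70105. In that list miR-204 at 3184, miR-146a at 786 and miR-155 at 314 lay above every other library, where the highest were 1676, 675 and 295. Those of endothelium and vessel growth summed to 52735, against 58475 to 79978. Within them miR-10a (5349, against 630 to 4881), miR-155, miR-296-3p, miR-424-3p and miR-503-3p lay above every other library. The gonadal somatic miRNAs summed to 1893, against 3361 to 5057. The striated muscle ones summed to 3.81, against 12.5 to 24.3, and the meiotic germ cell ones to 21.9, against 40.5 to 264.7. Of the meiotic germ cell ones only miR-34c lay below every other library, at 9.51 against 32.2 to 238. miR-34b and miR-449a were within the range of the others. The leukocyte miRNAs, at 1367 against 1253 to 2763, and the epithelial ones, at 20.9 against 10.7 to 24.8, lay within the range of the others. The part of these cell types in the values of Moderate replicate 5 was not tested.

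Ratios of 2 miRNAs within a library do not depend on the scaling. The ratio of miR-126-5p to miR-126-3p, the arms of a single hairpin, was the steadiest, with a lowest value of 12.2, a median of 13.4 and a highest value of 14.7 in High libraries, against 10.8, 13.04 and 16.2 in Moderate libraries. The highest and lowest of all belonged to Moderate libraries. Its log2 ratio differed between diets by 0.03 (SE 0.04; permutation p = 0.479, adjusted p = 0.575 over 6 pairs, n = 15 each, two-sided).

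The ratio of miR-143 to miR-145 ran from 320 through 395 to 518 in High libraries, against 237, 363 and 1191 in Moderate libraries. The value of 1191 was Moderate replicate 5, and the next highest in that diet was 475. The log2 ratio differed by 0.04 (SE 0.14; permutation p = 0.821, adjusted p = 0.821), and without that library by 0.16 (SE 0.08; permutation p = 0.0600, adjusted p = 0.219). In that selection 4 of 15 High libraries had a ratio under the Moderate median.

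**Figure D3:**
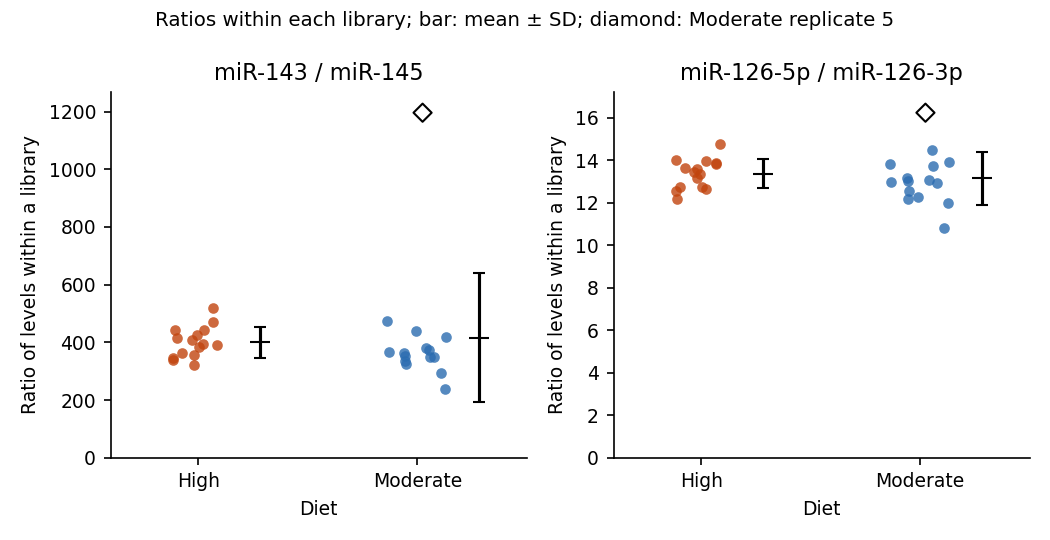
Ratio of miR-143 to miR-145 and of miR-126-5p to miR-126-3p within each library, with High left of Moderate, bars at the mean ± SD of 15 libraries and Moderate replicate 5 as a diamond. Outside that library, at 1191 for the smooth muscle pair and 16.2 for the miR-126 arms, the values of both diets overlap.

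Between the smooth muscle and the endothelial miRNAs, the 2 ratios with the lowest p were miR-145 to miR-126-5p, at -0.22 (SE 0.13; permutation p = 0.101), and miR-145 to miR-126-3p, at -0.19 (SE 0.11; permutation p = 0.103). Both had an adjusted p of 0.310. The ratio of miR-145 to miR-126-3p was 0.260 to 0.558 in High and 0.289 to 0.571 in Moderate libraries, with 12 of 15 High libraries below the Moderate median. miR-143 relative to miR-126-5p stood at -0.17 and relative to miR-126-3p at -0.15, with adjusted p-values of 0.473 and 0.575. Set against the mean log2 level of the fibroblast, red blood cell or epithelial miRNAs, none of the 4 passed in 12 ratios, where the lowest permutation p was 0.0720, for miR-126-5p against the epithelial miRNAs (0.31, SE 0.17; adjusted p = 0.311).

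Within each diet the 2 arms of miR-126 varied together from calf to calf, and so did miR-143 and miR-145 in High calves. Across the 15 High libraries, log2 values of miR-126-5p and miR-126-3p had Pearson's r = 0.922 and Spearman's rho = 0.882 (permutation p = 1e-05, the smallest that the resamples can give, and 4e-05; adjusted p = 0.00012 and 0.00048 over 12 correlations). In the 15 Moderate libraries r was 0.947 and rho 0.789 (permutation p = 3e-05 and 0.0008; adjusted p = 0.00018 and 0.0048). Without the 2 libraries farthest from the median of miR-126-5p, r was 0.839 in High (permutation p = 7e-05) and 0.751 in Moderate libraries (permutation p = 0.00424), and without Moderate replicate 5 it was 0.833 in Moderate libraries (adjusted p = 0.00132).

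miR-143 and miR-145 had r = 0.711 and rho = 0.707 over the 15 High libraries (permutation p = 0.0032 and 0.00418; adjusted p = 0.0128 and 0.0167). Without the 2 libraries farthest from the median of miR-143, r was 0.570 (permutation p = 0.0438, n = 13), and leaving out single High libraries gave 0.587, without replicate 8, to 0.748. Scaled by library totals r was 0.556 in High libraries (adjusted permutation p = 0.0626), short of the threshold. In the 15 Moderate libraries r was 0.233 and rho 0.371 (permutation p = 0.418 and 0.172; adjusted p = 0.626 and 0.515), and r was 0.109 without the 2 libraries farthest from the median. Moderate replicate 5 decided that value: in the other 14 Moderate libraries r was 0.716 and rho 0.604 (permutation p = 0.00466 and 0.0246; adjusted p = 0.0140 and 0.0739). Scaled by library totals those 14 libraries had r = 0.474 (adjusted permutation p = 0.258), short of the threshold. The correlations of the 2 diets were not found to differ, with all 30 libraries (permutation p = 0.554, adjusted p = 0.798 over 6 pairs) or without that library (permutation p = 0.987).

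On the deposited scale no smooth muscle miRNA passed the threshold with either arm of miR-126. In High libraries r ran from 0.0922, for miR-145 with miR-126-3p, to 0.322, for miR-143 with miR-126-3p. In Moderate libraries miR-145 had r = 0.748 with miR-126-3p (permutation p = 0.0195, adjusted p = 0.0586) and r = 0.587 with miR-126-5p (permutation p = 0.0487, adjusted p = 0.117), while rho was 0.279 and -0.0643. Without Moderate replicate 5 these r were 0.159 and -0.157, so they rested on that library. Scaled by library totals, miR-143 had r = 0.865 with miR-126-5p and 0.876 with miR-126-3p in Moderate libraries (adjusted permutation p = 0.0472 each), and 0.153 and 0.168 without replicate 5. Without replicate 5 on the deposited scale it had r = 0.458 with miR-126-3p (adjusted p = 0.240) and 0.347 with miR-126-5p (adjusted p = 0.413). Within the libraries under 12 M reads, miR-143 and miR-145 had r = 0.751 in 11 High and 0.236 in 13 Moderate libraries, and the miR-126 arms 0.945 and 0.952. The deeper libraries, 4 High and 2 Moderate, were too few for a correlation.

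**Figure D4:**
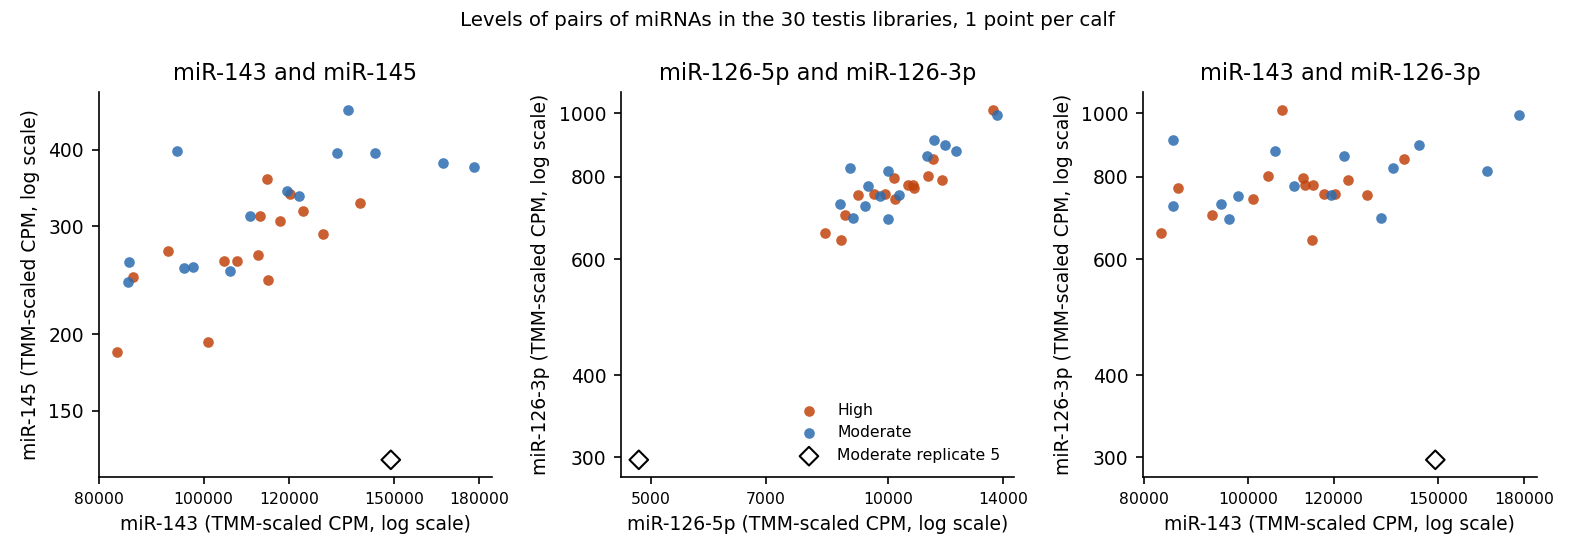
Levels in TMM-scaled CPM on log scales of miR-143 with miR-145, miR-126-5p with miR-126-3p, and miR-143 with miR-126-3p, 1 point per calf, coloured by diet, with Moderate replicate 5 as a diamond. The miR-126 arms follow a narrow line in both diets (r = 0.922 in High and 0.947 in Moderate), and miR-143 and miR-145 a broader one (r = 0.711 in High and 0.716 in Moderate without replicate 5).

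The calf-to-calf spread of the smooth muscle pair was wide next to that of all miRNAs with a mean of at least 100. That set was not matched on level. Without Moderate replicate 5, the SD of log2 values within diet was 0.289 for miR-145 and 0.279 for miR-143, larger than that of 90.0% and 89.2% of the 120 miRNAs with a mean of at least 100, whose median SD was 0.156. It was 0.190 for miR-126-5p and 0.158 for miR-126-3p, larger than that of 68.3% and 50.8% of them. No test goes with these ranks.

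Over all tested miRNAs, each miR-126 arm was the one most like the other: after removal of the diet means, r was 0.935 over 30 libraries and 0.878 over the 29 without Moderate replicate 5, in both directions first of 386. These correlations are descriptions, since all values of a library share its depth and scaling. The next most like miR-126-5p over 30 libraries were miR-139 (r = 0.851), miR-133a (0.827), miR-140 (0.803) and miR-32 (0.788). For miR-126-3p they were miR-140 (0.864), miR-33a (0.863), miR-32 (0.854) and miR-20a (0.844). Over 29 libraries miR-139 had r = 0.740 with miR-126-5p and miR-133a 0.684 with miR-126-3p. With miR-126-3p r was then 0.559 for miR-140, 0.278 for miR-33a, 0.287 for miR-32 and 0.182 for miR-20a.

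For miR-143 and miR-145 the order turned on Moderate replicate 5. Over 30 libraries the miRNAs most like miR-143 were miR-2299-5p (r = 0.651), miR-130a (0.586), miR-10182-3p (0.563), miR-181a (0.524) and miR-3432b (0.469), and miR-145 held place 9 of 386 with r = 0.358. Over 29 libraries miR-145 was first for miR-143 and miR-143 first for miR-145, with r = 0.704. For miR-145 the 5 most like it over 30 libraries were miR-199a-5p (0.767), miR-190a (0.763), miR-1296 (0.756), miR-455-5p (0.756) and miR-19b (0.736), with miR-143 at place 140. Over 29 libraries these 5 had r = 0.539, 0.536, 0.485, 0.488 and 0.421, in the same order. miR-199a-5p was still among the 5 most like miR-145 there. miR-10b, the most abundant miRNA of the tissue, had r = 0.674 with miR-145 over 29 libraries and -0.459 over 30; it was singled out after its values were seen.

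**Figure D5:**
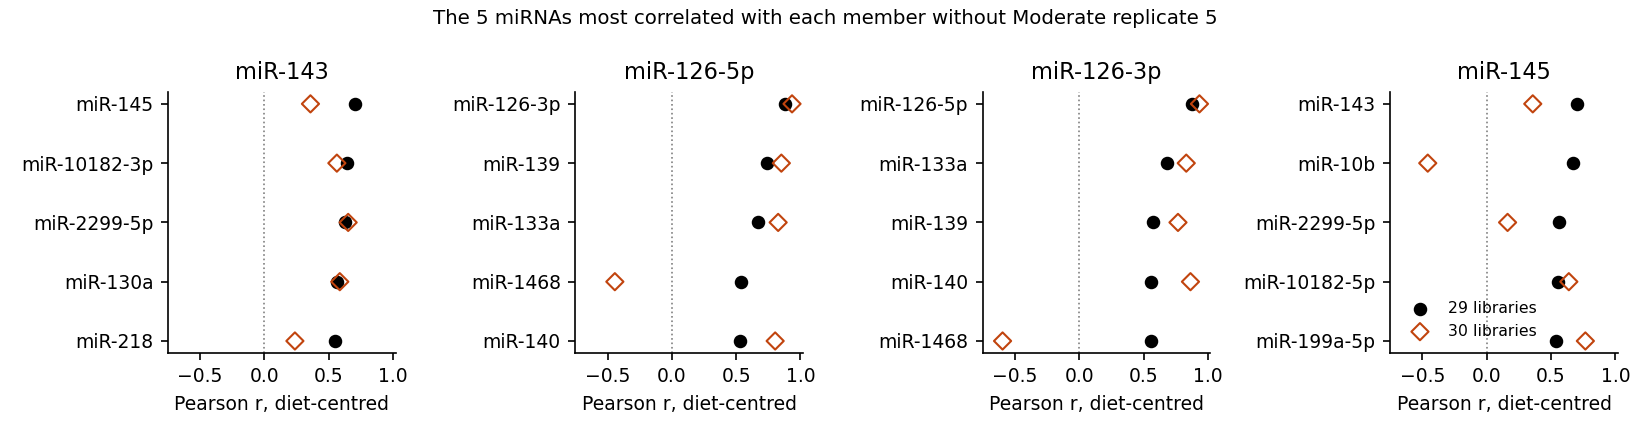
Pearson's r, after removal of the diet means, of each of the 4 miRNAs with the 5 most like it over the 29 libraries without Moderate replicate 5 (filled points), and the same r over all 30 libraries (open diamonds). The miR-126 arms head each other's order on both counts, whereas miR-143 and miR-145 stand at 0.704 over 29 libraries and 0.358 over 30.

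Other miRNAs of the vessel wall were read in the same fit. Of 13 tested miRNAs known to act on the phenotype of smooth muscle cells, 0 passed the test, with a median log2 fold change of 0.04, against 0.03 over all 387. miR-26a, the most abundant of them, averaged 41971 ± 4295 in High and 46665 ± 9971 in Moderate libraries (log2 fold change -0.13, SE 0.09; adjusted p = 0.445 in limma), and miR-155, with the lowest p, 194 ± 34.6 and 219 ± 41.3 (-0.17, SE 0.09; adjusted p = 0.284). Without Moderate replicate 5 miR-26a stood at -0.19 and miR-155 at -0.13 (adjusted p = 0.0664 and 0.322 in limma). Of 28 tested miRNAs of endothelium and vessel growth, 1 rose in High (3.57%, against 4.91% of all 387) and 27 did not pass, with a median of 0.06. The largest difference was among those 27: miR-10a was lower in High, at -0.61 (SE 0.24, adjusted p = 0.112 in limma). Without Moderate replicate 5 miR-10a stood at -0.48 (adjusted p = 0.124). The 1 that passed was miR-27b, known in zebrafish and mice to promote sprouting of endothelial cells. It averaged 23806 ± 2111 in High and 20362 ± 2783 in Moderate libraries (0.23, SE 0.07; adjusted p = 0.0409 in limma, and 0.0123 without Moderate replicate 5). Its adjusted p missed the threshold with library totals (0.241), with no filter on low values (0.0860), with the diet of the titles (0.981) and in 18 of the 30 fits that each left out 1 library, where it reached at most 0.0745. It also missed in the libraries under 12 M reads (0.209), the deeper ones (0.335), the 12 with the same labels (0.389) and the 18 with conflicting labels (0.142). With library totals but without Moderate replicate 5 it passed (0.0229).

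Markers of the cells around vessels and of other cells were compared in the same fit. None of the 4 fibroblast miRNAs passed (median -0.07); miR-199a-3p stood at -0.04 and miR-199a-5p at -0.14, with an adjusted p for miR-199a-5p of 0.270 with all libraries and 0.0114 without Moderate replicate 5. The red blood cell miRNAs gave 0 of 3 calls (median 0.25), with miR-486 at 0.18 and miR-144 at 0.42. Without Moderate replicate 5 these 2 stood at 0.38 and 0.27 (adjusted p = 0.0947 and 0.417 in limma). The epithelial miRNAs gave 0 of 4 (median -0.27), with miR-141 at -0.14 and miR-200a at -0.33, and their summed level was only 11.5 to 17.4 in High and 10.7 to 24.8 in Moderate libraries. The leukocyte miRNAs gave 0 of 4 (median -0.04), with miR-142-5p at -0.02 and miR-223 at -0.40. The striated muscle miRNAs gave 0 of 3 (median 0.16), with miR-133a at 0.06 and miR-499 at 0.57 (adjusted p = 0.0638, and 0.0127 without Moderate replicate 5). The gonadal somatic miRNAs gave 0 of 2 (median 0.04), with miR-202 at 0.05. Of 3 miRNAs listed as meiotic germ cell markers, miR-34b and miR-34c were higher in High (0.73 and 0.96; adjusted p = 0.0313 and 0.0260 in limma). This is 66.7% of the list, against 4.91% of all 387, and the other, miR-449a, stood at 0.02 (adjusted p = 0.949). Without Moderate replicate 5 miR-34b stood at 0.68 and miR-34c at 0.79 in limma (adjusted p = 0.0201 and 0.0107). Both passed in DESeq2 (0.0305 and 0.00885), but in edgeR miR-34b did not (0.0591). In limma neither passed with library totals (adjusted p = 0.0967 and 0.146), no filter on low values (0.0748 and 0.0619) or the diet of the titles (0.981 each). With library totals but without Moderate replicate 5 both passed (0.0231 and 0.0180). Neither passed in the libraries under 12 M reads (0.0669 each), in the deeper ones (0.785 and 0.662), with conflicting labels (0.352 and 0.280) or in the 12 with the same labels (0.155 each). In the 30 fits that each left out 1 library, miR-34b missed in 6 and miR-34c in 1. Which cells of the testis these miRNAs came from was not tested.

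No relation of the 4 miRNAs to these markers within a diet passed adjustment. Of 24 correlations with the mean log2 level of the fibroblast, red blood cell or epithelial miRNAs, a set chosen after seeing the data, 0 passed. The lowest p was for miR-145 with the red blood cell miRNAs in High calves, at r = -0.679 and rho = -0.421 (permutation p = 0.0058 and 0.119; adjusted p = 0.0888 and 0.829), and without the 2 libraries farthest from the median of miR-145 r was -0.210. In Moderate calves miR-145 had r = 0.786 and rho = 0.425 with the fibroblast miRNAs (permutation p = 0.0074 and 0.114; adjusted p = 0.0888 and 0.829). There r was 0.342 without replicate 5, and 0.603 without both replicates 4 and 5, the 2 libraries farthest from the median of miR-145 (permutation p = 0.0280, n = 13).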

How the data were processed

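The labels' protocols name the Qiagen RNeasy Plus Universal kit for total RNA and the Illumina TruSeq kit for small RNA libraries. Per the submitters' processing notes, FastQC 0.11.8, cutadapt 2.6, R 3.4 and edgeR 3.5 were used. No aligner, miRNA set or build is named there: these are not given in the sources used. The authors deposited a normalized signal, read from the values as CPM scaled by TMM. Dividing each library by the value of 1 read gave whole reads for 95.3% of 18379 values above 0 (tolerance 0.02 read), and for the 4 miRNAs described here in every library. A miRNA with no read could still hold up to 3 reads, or 0.138 to 1.43 units. This covers counting error only. No 2 libraries agreed within sampling noise (435 pairs).

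As these are normalized values, diet was tested in limma 3.58.1 (trend on mean level) on log2(value + 0.5), High minus Moderate, over the 387 miRNAs with at least 1 unit in at least 15 libraries; fold changes on this scale are understated for low miRNAs. P-values are two-sided with Benjamini-Hochberg adjustment. On recovered reads, edgeR 4.0.16 called 27 miRNAs and DESeq2 1.42.0 called 52, as alternatives. Ratios and correlations were tested by permutation with 100000 resamples (SciPy 1.17.1), adjusted over 6 pair ratios, 12 ratios to marker lists, 12 pair correlations, 6 differences between diets and 24 correlations with marker lists. All analyses were run in R 4.3.3 and Python 3.11.15, and the fit was tested on simulated data. No column of the table was left unused.

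The miRNAs, the 9 marker lists and the tests were chosen with earlier results of these data known. Named were the 4 miRNAs, the 5 most correlated with each over 30 libraries, and in each list those past the threshold or, with none, the most abundant and the one with the lowest p. miR-449a was named as well, to complete the meiotic germ cell list, and miR-10a for the largest difference in its list. Some further list members were named for their values in Moderate replicate 5. Replicates were numbered in accession order, which pairs no calves. Each library is a calf, and gene positions come from the RefSeq table of ARS-UCD2.0, without coordinates, because the build behind the files is not known.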

Additional observations from a re-analysis of the deposited data

Results flagged for a closer look

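Outlying libraries were looked for within 16 sets, the 4 miRNAs in the libraries of each diet with the same and with conflicting labels, and 2 were found; chance flags about 1 in 20 such sets. miR-126-3p in High replicate 5 stood at 1013, above the 701 to 768 of the other High libraries whose labels give the same diet, with a gap of 0.784 of the whole range (n = 6). miR-126-3p in Moderate replicate 5 stood at 297, below the 723 to 862 of the other Moderate libraries of that kind, with a gap of 0.753 of the range (n = 6). High replicate 5 also had the highest miR-126-5p of its diet, 13603, and Moderate replicate 5 the lowest, 4828.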

How the results depend on the processing

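None of the 4 miRNAs passed the threshold for diet in the 64 values from 16 alternative fits outside single left-out libraries, where adjusted p-values in limma, edgeR and DESeq2 ran from 0.103 to 0.997; 11 of the 64 values reversed a direction, all of values that had not passed. At least 262 reads lay behind each value of these miRNAs. The title conflict, which affects 18 libraries, and Moderate replicate 5 bear on every result on diet. No paired analysis was possible because replicates were numbered in accession order and no label pairs the calves.

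The log2 fold changes that reversed were 0.10 for miR-143 and 0.056 for miR-145 with library totals, 0.044 for miR-143 in the 6 deeper libraries, 0.16 for miR-145 with the diet of the titles and 0.0047 for it in the 12 libraries with the same diet in both labels. For miR-126-5p they were -0.042 in the 18 libraries with conflicting labels and -0.0024 in edgeR without Moderate replicate 5. For miR-126-3p they were -0.11 in those 18 libraries, -0.00053 in edgeR, -0.0030 in DESeq2 and -0.053 in edgeR without Moderate replicate 5. With Moderate replicate 5 left out, library totals gave -0.018 for miR-143 and -0.18 for miR-145, and the 12 libraries with the same labels -0.23 for miR-145, so these reversals were seen only with it. The cause of the others was not tested. Leaving out single libraries gave -0.15 to -0.07 for miR-143, -0.25 to -0.11 for miR-145, -0.011 to 0.10 for miR-126-5p and -0.062 to 0.062 for miR-126-3p.

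Against 19 calls, limma made 0 with library totals, with no filter on low values, with the diet of the titles, in the 12 libraries with the same diet in both labels (also without Moderate replicate 5) and in the 18 with conflicting labels. In these fits 59, 104, 11, 43, 69 and 58 miRNAs had an unadjusted p under 0.05, in the order named. It made 3 in the libraries under 12 M reads, 4 in the deeper ones and 31 with library totals without Moderate replicate 5, while DESeq2 made 52 and edgeR without that library 51. Leaving out single libraries gave 0 (without High replicate 5) to 45 calls (without Moderate replicate 5). With upper-quartile scaling 13 calls were higher and 8 lower in High, against 9 and 10.

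No pair ratio or ratio to a marker list passed under any alternative (adjusted permutation p from 0.156 to 0.992, and at least 0.115 with single libraries left out). With the diet of the titles the log2 ratios that reversed were -0.17 for miR-143 to miR-145, 0.046 for miR-145 to miR-126-5p and -0.053 for miR-126-5p to miR-126-3p, and relative to the red blood cell list 0.11 for miR-143, 0.27 for miR-145, 0.23 for miR-126-5p and 0.28 for miR-126-3p, and 0.072 for miR-145 relative to the fibroblast list. In the 12 libraries with the same labels they were -0.16 for miR-143 to miR-145, -0.030 for miR-126-5p to miR-126-3p, and 0.0092 for miR-126-5p and 0.039 for miR-126-3p relative to the red blood cell list, with 0.027 for miR-143 relative to the fibroblast list when Moderate replicate 5 was left out of them. In the 18 with conflicting labels they were 0.023 for miR-143 to miR-126-3p, 0.029 for miR-143 relative to the fibroblast list and -0.11 for miR-145 relative to the epithelial list. Leaving out single libraries gave log2 differences of -0.0083 to 0.16 for miR-143 to miR-145, -0.22 to -0.078 for miR-143 to miR-126-5p, -0.20 to -0.027 for miR-143 to miR-126-3p, -0.26 to -0.16 for miR-145 to miR-126-5p, -0.23 to -0.15 for miR-145 to miR-126-3p and 0.0093 to 0.051 for miR-126-5p to miR-126-3p, and -0.097 to 0.026 for miR-143 to the fibroblast list, -0.49 to -0.26 for miR-143 to the red blood cell list, 0.063 to 0.19 for miR-143 to the epithelial list, -0.13 to -0.052 for miR-145 to the fibroblast list, -0.52 to -0.29 for miR-145 to the red blood cell list, -0.0022 to 0.15 for miR-145 to the epithelial list, 0.088 to 0.14 for miR-126-5p to the fibroblast list, -0.29 to -0.088 for miR-126-5p to the red blood cell list, 0.23 to 0.39 for miR-126-5p to the epithelial list, 0.053 to 0.11 for miR-126-3p to the fibroblast list, -0.33 to -0.12 for miR-126-3p to the red blood cell list and 0.18 to 0.37 for miR-126-3p to the epithelial list.

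Correlations of miR-126-5p with miR-126-3p passed in both diets under every alternative. That of miR-143 with miR-145 in High libraries missed the threshold with library totals (r = 0.556, adjusted permutation p = 0.0626). In Moderate libraries it passed with library totals (0.908), which rested on replicate 5 (0.474 without it, adjusted permutation p = 0.258), and, without replicate 5, as deposited (0.716) and centred on the median miRNA (0.637), and was -0.012 when centred with all 15. With library totals miR-143 had r = 0.865 with miR-126-5p and 0.876 with miR-126-3p in Moderate libraries, both past the threshold. Without replicate 5 these were 0.347 and 0.458 as deposited, 0.153 and 0.168 with library totals and 0.205 and 0.247 when centred on the median. miR-145 had r = -0.094 with miR-126-5p and -0.153 with miR-126-3p in High libraries with library totals. In Moderate libraries without replicate 5 these were -0.378 and -0.136 with library totals and -0.373 and -0.177 when centred. No difference between diets passed, and the Fisher z differences, High minus Moderate, that reversed were -0.89 for miR-143 with miR-145, -1.20 for miR-143 with miR-126-5p and -1.25 for miR-143 with miR-126-3p with library totals, and 0.19 for the miR-126 arms when centred. Without Moderate replicate 5 the differences were -0.0094 for miR-143 with miR-145, -0.074 for miR-143 with miR-126-5p, -0.16 for miR-143 with miR-126-3p, 0.26 for miR-145 with miR-126-5p, -0.068 for miR-145 with miR-126-3p and 0.41 for the miR-126 arms.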
